A study of Mus musculus with 10 samples.

Results

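Oncofetal liver genes are transcribed in the fetal liver, are largely silent in the adult organ and can be found again in liver tumours. The 10 studied here were the serum protein gene Afp, the imprinted genes H19, Igf2, Dlk1 and Peg3, the heparan sulfate proteoglycan gene Gpc3, the RNA-binding protein genes Igf2bp1, Igf2bp2 and Igf2bp3, and the let-7 inhibitor gene Lin28b. They were listed by symbol and matched to gene identifiers, and all 10 were found among the 49585 genes of the deposited count tables. The series holds bulk RNA sequencing of mouse liver cells in 10 samples, 5 groups of 2, from an Rb family triple knockout model of hepatocellular carcinoma. Per the labels, livers or visible lesions were digested with enzymes, and cells carrying YFP, which marks Cre recombination of floxed alleles, were sorted by flow cytometry. Count columns were matched by name to the Ck19-derived organoids (2 libraries) and the Sox9-derived organoids (2 libraries), which are cultures named after a bile duct keratin and a duct and progenitor cell transcription factor. A further pair of columns carries Sox9, the tag TKO and a number. It is called here the TKO-tagged Sox9 libraries and was kept apart, because only its name ties it to the Sox9-derived samples. The sorted Epcam-negative, Epcam-high and Thy1-positive fractions were not analysed here.

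The labels give all groups the same source, primary liver cells, with no treatment. They do not state the Cre driver, the floxed alleles, the strain or age of the mice, or whether a pair of libraries came from separate animals or cultures. The tag TKO is not defined by any label, and no genotype is given for a single library. The p-values below therefore weigh a difference only against the spread between libraries within pairs, which may be technical. That spread is estimated over all pairs of a fit, with information shared across genes.

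Imprinted genes are read from 1 parental copy only. H19, a long noncoding RNA that is also the precursor of a miRNA, and Igf2, which encodes a fetal insulin-like growth factor, share enhancers and an imprinting control region, so that classically H19 is read from the maternal and Igf2 from the paternal chromosome. The 3 Igf2bp proteins bind Igf2 and many other mRNAs and affect their stability and translation. Lin28b blocks the maturation of let-7 miRNAs, which repress growth genes. Afp and Gpc3 are used as markers of hepatocellular carcinoma.

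The sequences that set these genes apart were read from the RefSeq tables on GRCm38.p6. The H19 exons hold the miRNA gene Mir675, and the Igf2 gene holds Mir483. Their mature products are shown because their host genes were the most abundant of the oncofetal genes. Capitals mark the seed, bases 2 to 8, by which a miRNA recognises its targets.
mmu-miR-675-5p: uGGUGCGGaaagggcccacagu
mmu-miR-675-3p: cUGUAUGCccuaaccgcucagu
mmu-miR-483-5p: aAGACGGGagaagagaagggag
mmu-miR-483-3p: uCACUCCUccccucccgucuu
No seed was shared among these. The let-7 family, which Lin28b restrains, had 9 mature sequences in the table, and all of them carried the seed GAGGUAG. A pair of members is shown to make the common seed visible.
mmu-let-7a-5p: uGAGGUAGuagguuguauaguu
mmu-let-7g-5p: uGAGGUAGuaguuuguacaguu
The miRNAs themselves were not measured, since the counts are of whole genes.

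The 250 bases before the RefSeq transcript start are shown for 4 of the 8 oncofetal genes with an entry, the tumour markers Afp and Gpc3, the growth factor gene Igf2, and Igf2bp2 with its uneven pair of Sox9-derived libraries. Capitals mark a TATA box (TATAAA), an HNF1 core site (GTTAAT) or a GC box (GGGCGG), searched on both strands, so that a GC box on the other strand reads CCGCCC.
Afp, chr5:90490464-90490713, plus strand: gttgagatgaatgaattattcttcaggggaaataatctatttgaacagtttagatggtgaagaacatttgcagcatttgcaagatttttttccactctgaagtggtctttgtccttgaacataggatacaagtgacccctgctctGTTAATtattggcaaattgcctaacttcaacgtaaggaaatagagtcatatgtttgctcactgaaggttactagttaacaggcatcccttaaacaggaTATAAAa
Igf2, chr7:142657497-142657746, minus strand, the first of 4 starts: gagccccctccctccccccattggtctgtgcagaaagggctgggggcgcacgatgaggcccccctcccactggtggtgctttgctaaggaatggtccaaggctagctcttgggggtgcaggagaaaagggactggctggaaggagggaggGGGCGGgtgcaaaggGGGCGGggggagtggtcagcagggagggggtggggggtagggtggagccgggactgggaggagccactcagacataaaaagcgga
Gpc3, chrX:52613975-52614224, minus strand: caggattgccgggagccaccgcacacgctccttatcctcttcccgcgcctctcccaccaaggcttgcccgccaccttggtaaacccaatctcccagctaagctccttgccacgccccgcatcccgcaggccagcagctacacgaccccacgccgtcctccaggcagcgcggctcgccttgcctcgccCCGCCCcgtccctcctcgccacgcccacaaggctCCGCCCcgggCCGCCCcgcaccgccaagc
Igf2bp2, chr16:22163300-22163549, minus strand: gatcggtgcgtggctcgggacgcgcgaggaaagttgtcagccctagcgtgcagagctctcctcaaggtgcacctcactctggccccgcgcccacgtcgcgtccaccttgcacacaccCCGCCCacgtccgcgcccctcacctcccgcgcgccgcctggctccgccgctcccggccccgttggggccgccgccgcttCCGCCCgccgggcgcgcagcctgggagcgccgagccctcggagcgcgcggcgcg
The Afp window was 36.0% G or C and held a TATA box and an HNF1 core site. The window of Gpc3 was 71.6% G or C and that of Igf2bp2 77.2%, against a median of 52.4% over 32851 promoters. The 4 Igf2 starts differed, at 66.0% for the one shown and 68.8%, 47.6% and 50.8% for the others, the last 2 with no GC box. They are ordered by rising position on the chromosome, so on the minus strand the one shown is the furthest downstream. GC boxes numbered 2 for the Igf2 start shown, 3 for Gpc3 and 2 for Igf2bp2. Of all promoters of that length, 12.4% held the TATA box, 6.43% the HNF1 core site and 32.7% the GC box. These matches describe letters and are not shown to be bound sites.

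Library size and cell identity were read first. The organoid libraries held 31883180 to 36606008 fragments assigned to genes and the TKO-tagged libraries 53280136 and 59664959. Levels are in CPM, the gene's count scaled to an equal total in every library. All 12 biliary markers exceeded 1 CPM in each organoid library, with summed levels of 25606 to 41566 CPM, and Krt19 stood at 1945 to 3120 CPM. In the TKO-tagged pair Krt19 was at 0.619 and 1.61 CPM, Epcam at 8.99 and 5.61 CPM, the summed biliary level at 6713 and 3617 CPM, and Krt7 at 0 in library 2. Its 14 hepatocyte markers all exceeded 1 CPM and summed to 84685 and 68226 CPM, against 163 to 566 CPM in the organoids, where Serpina1a was at 0 in 3 of 4 libraries. Of the biliary list, Sox9 itself (63.8 and 106 CPM in the TKO-tagged pair) overlapped the Ck19-derived pair (97.0 and 78.4 CPM). Onecut1 did so too (1.97 and 5.31 against 2.98 and 2.57 CPM), and each other biliary marker was below every organoid library. By most of its markers the TKO-tagged pair thus went against the organoid label it is tied to by name, and the oncofetal genes are given with and without it. It also held more mesenchymal (395 and 184 against 10.3 to 33.7 CPM), endothelial (111 and 80.2 against 0.437 to 2.90 CPM), leukocyte (622 and 641 against 3.08 to 11.7 CPM) and erythroid marker RNA (301 and 2540 against 0.0627 to 0.300 CPM). Pdgfra and Ms4a1 were at 0 in both TKO-tagged libraries, and the globin genes Hbb-bt and Hba-a1 were at 0 in all 4 organoid libraries. The mesenchymal list gene Reln went the other way, with 4.45 and 1.56 CPM in the TKO-tagged pair against 5.55 to 31.1 CPM in the organoids. The endothelial list gene Vwf (1.39 and 0.302 CPM) was below the Ck19-derived pair (1.85 and 2.20 CPM). The female transcript Xist stood at 60.3 and 57.1 CPM in the Ck19-derived pair and at most 0.0375 CPM in the other pairs, where Y-linked Ddx3y was at 15.5 to 34.2 CPM. Sex thus moved with every comparison to the Ck19-derived pair, and its part cannot be told apart from that of cell origin.

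**Figure D1:**
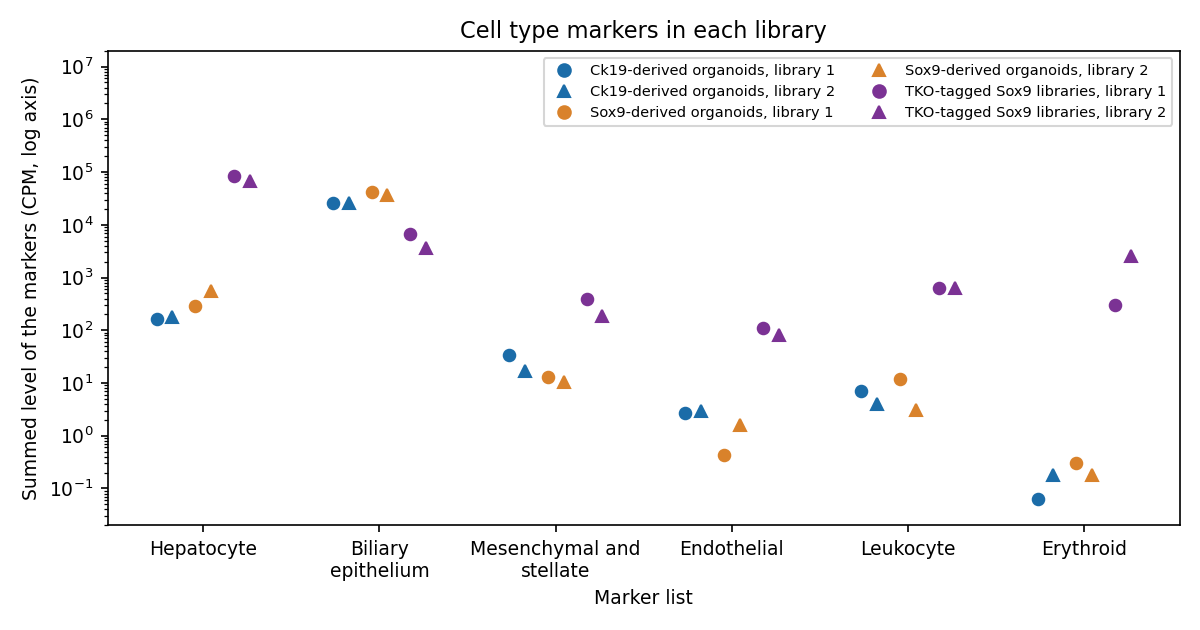
Summed level of 6 lists of cell type markers (CPM, log axis) in each library, by colour for the pair and by shape for the library number. The TKO-tagged libraries lie at 84685 and 68226 CPM for hepatocyte markers and the 4 organoid libraries between 163 and 566 CPM, with the order turned round for biliary markers.

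In the organoids the oncofetal genes were sparse. In TKO-tagged libraries 1 and 2, H19 ranked 62nd and 23rd of all genes, Igf2 28th and 514th, and Gpc3 759th and 4327th, with the others lower. Together the 10 genes took 59.2 and 23.1 CPM in the Ck19-derived pair, 43.9 and 3.23 CPM in the Sox9-derived pair, and 5715 and 4588 CPM in the TKO-tagged libraries. That last level is 0.571% and 0.459% of all assigned fragments. At 1 CPM or more stood 4 and 3 of the 10 genes in the Ck19-derived pair, 3 and 0 in the Sox9-derived pair, and 4 and 5 in the TKO-tagged pair. In bulk RNA, fewer cells of a type and less RNA per cell cannot be told apart, and this touches every level below.

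**Figure D2:**
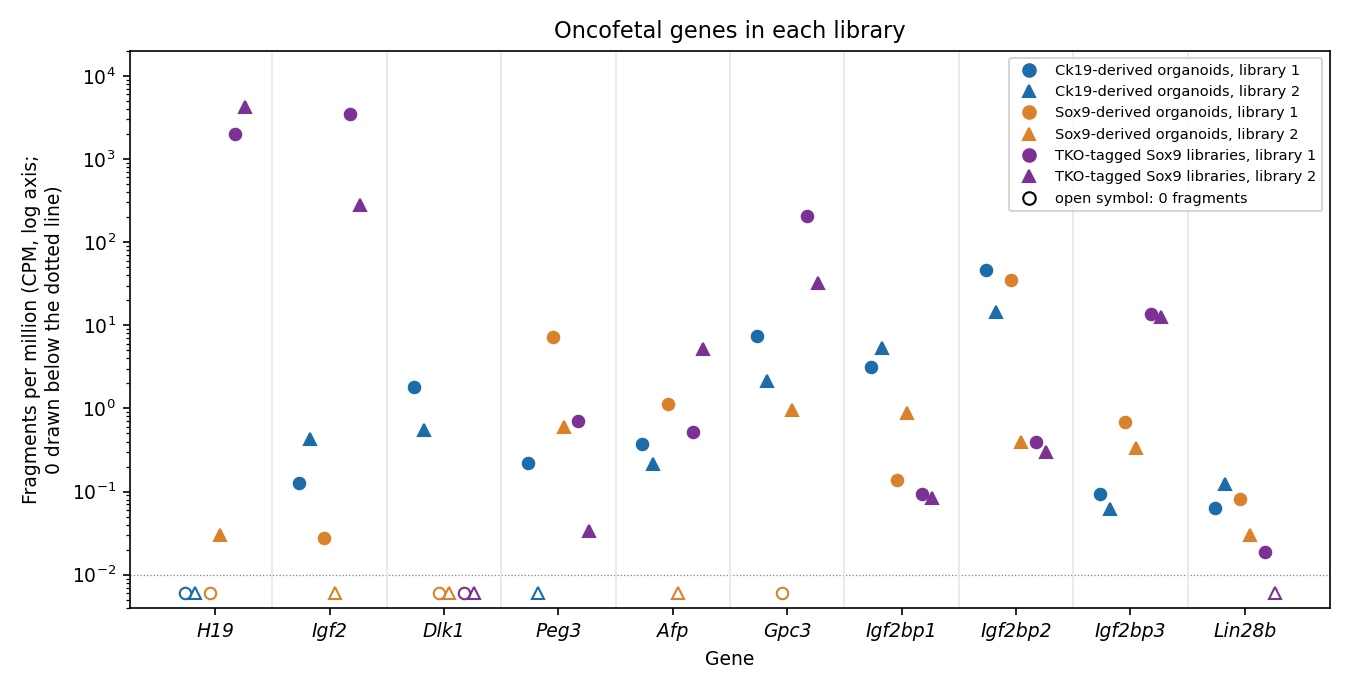
Level of each of the 10 oncofetal genes in each of the 6 libraries (CPM, log axis), with open symbols under the dotted line for 0 fragments. H19 reaches 1997 and 4257 CPM in the TKO-tagged libraries and has 1 fragment in all 4 organoid libraries together, while Igf2bp2 and Igf2bp1 are highest in organoid libraries.

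Between the organoid types, Sox9-derived against Ck19-derived, no oncofetal gene passed the test. The fit of 4 libraries by edgeR's quasi-likelihood test called 95 of 16653 genes at a Benjamini-Hochberg adjusted p under 0.05, which is 0.570%, with 31 higher (0.186%) and 64 lower (0.384%) in the Sox9-derived pair. Of the 7 oncofetal genes with enough fragments to be tested 0 were called, while 4 had an unadjusted p under 0.05 (Dlk1, Igf2bp1, Igf2bp3 and Peg3). DESeq2, run as an alternative, called 2 of them, Dlk1 (adjusted p = 0.0166) and Peg3 (adjusted p = 0.0356). It also called far more of all genes than edgeR did, as given at the end, so these calls do not set the list apart. Dlk1, Gpc3 and Igf2bp1 passed the filter on low counts only with the Ck19-derived pair, and Igf2bp3 and Peg3 only through the Sox9-derived pair. Each was thus tested because of the pair where it was high, and the p-values of these genes are a description. Without Sox9-derived library 2 the log2 fold changes of Gpc3, Igf2bp1 and Peg3 were larger in size. Without Sox9-derived library 1 that of Igf2bp2 was larger in size. These values are given by gene below, and they rest on single libraries. H19, Igf2 and Lin28b were too low for this test.

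Both comparisons with the TKO-tagged pair were added after the data were seen, use 1 fit of 6 libraries and share the TKO-tagged libraries. Against the Ck19-derived pair, 5046 of 18337 genes were called, or 27.5%, with 2635 higher (14.4%) and 2411 lower (13.1%). Of 9 oncofetal genes tested, 3 were called higher (H19, Igf2 and Igf2bp3) and 2 lower (Dlk1 and Igf2bp1). Against the Sox9-derived pair 4931 genes, or 26.9%, were called, with 2695 higher (14.7%) and 2236 lower (12.2%), and 4 oncofetal genes were called higher (H19, Igf2, Gpc3 and Igf2bp3) and 0 lower. At this background, a call for a few of 9 genes does not by itself set the list apart. H19 and Igf2 passed the filter on low counts only through the TKO-tagged pair where they were high, so that they had to differ, and their calls are given as a description. Dlk1 and Igf2bp1 passed it only with the Ck19-derived pair where they were high, and their lower calls are likewise a description. With library totals in place of TMM factors, which were 0.669 and 0.727 in the TKO-tagged pair and 1.18 to 1.21 in the organoids, the median of all genes moved by −0.77 and −0.78 (log2), and the splits became 1810 higher to 5564 lower and 1957 to 5448. No oncofetal gene changed direction under that scaling. The oncofetal counts became 3 higher and 3 lower against the Ck19-derived pair, as Igf2bp2 gained a call, and stayed 4 and 0 against the Sox9-derived pair. The further gene lists below are given with both counts.

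**Figure D3:**
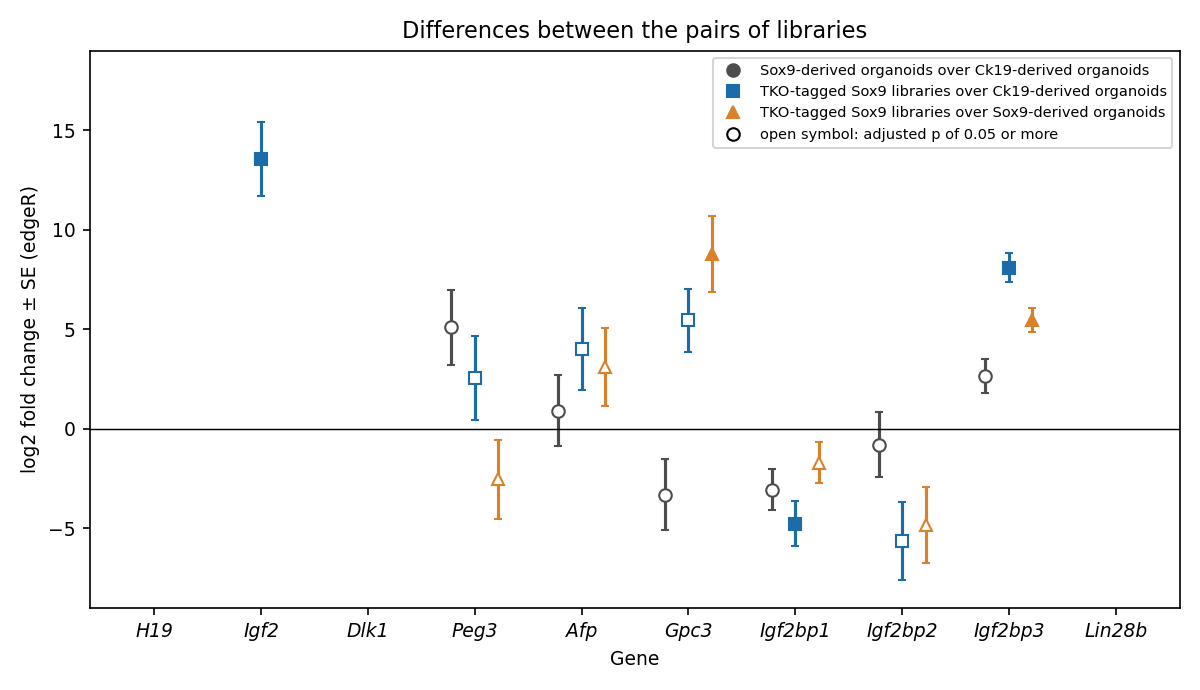
Log2 fold change with its standard error (edgeR) for each oncofetal gene in the 3 comparisons, filled where the adjusted p was under 0.05. Genes with at most 1 fragment in a pair or too few for the test have no point (H19, Dlk1, Lin28b, and Igf2 wherever the Sox9-derived pair enters). Igf2bp3 is the only gene drawn with filled points in both TKO-tagged comparisons, at 8.10 and 5.46.

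H19 was the oncofetal gene with the widest range. It lies on chromosome 7 (142575529 to 142578143, minus strand, GRCm38), ENSMUSG00000000031 in the files. Its level was 0 CPM in both Ck19-derived libraries, 0 and 0.0302 CPM (a single fragment) in the Sox9-derived libraries, and 1997 and 4257 CPM in the TKO-tagged libraries. H19 thus ranked 62nd and 23rd of all genes in the TKO-tagged pair and was at or next to 0 in every organoid library. Against the Ck19-derived pair it was at least 68744-fold higher, taking 3 fragments over the pair as the floor (edgeR adjusted p = 0.00114). Against the single fragment of the Sox9-derived pair the ratio of fragment totals was 222600, with a 95% counting interval of 39952 to 8792255 (edgeR adjusted p = 0.00108). Since H19 entered the fit only through the TKO-tagged libraries, these p-values add nothing to its levels. Other genes, the miRNA gene Mir675 among them, share 9.49% of its exon bases, and counting did not use strand.

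Igf2, 72.6 kb upstream of H19 on the same strand (chromosome 7, 142650766 to 142666816), was high in the same libraries but not in the same order. It stood at 0.125 and 0.428 CPM in the Ck19-derived libraries, 0.0273 and 0 CPM in the Sox9-derived libraries, and 3495 and 280 CPM in the TKO-tagged libraries. The pairs did not overlap, yet the TKO-tagged libraries differed from one another 12.5-fold, with library 1 high in Igf2 and library 2 high in H19. Per exon length, H19 stood at 1.38 times Igf2 in TKO-tagged library 1 and at 36.7 times in library 2 (TPM, a level scaled by exon length). Igf2 was higher than in the Ck19-derived pair by a log2 fold change of 13.54 (SE 1.86, edgeR adjusted p = 0.00653). Without Ck19-derived library 1 or 2 that call was lost (edgeR adjusted p = 0.067 and 0.0623). Against the 1 fragment of the Sox9-derived pair the ratio of totals was 125350, with a 95% counting interval of 22498 to 4951100 (edgeR adjusted p = 0.00527). By limma-voom neither Igf2 difference passed (adjusted p = 0.0815 and 0.116).

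Dlk1, an imprinted gene on chromosome 12 (109452823 to 109463336) that encodes a Notch-ligand-like membrane protein of hepatoblasts, had fragments in the Ck19-derived pair only. Its level was 1.82 and 0.550 CPM there (58 and 18 fragments) and 0 CPM in all 4 other libraries. Dlk1 thus passed the filter on low counts only through the Ck19-derived pair, and its test results are a description. It was at least 27.3-fold lower in the Sox9-derived pair (edgeR adjusted p = 0.131, not called) and at least 44.3-fold lower in the TKO-tagged pair (edgeR adjusted p = 0.0410, called). That call was lost whichever of the 6 libraries was left out (edgeR adjusted p = 0.0564 to 0.263) and by DESeq2 (adjusted p = 0.106). Meg3, the noncoding RNA of the same imprinted region, was also near 0, at 0.596 and 0.489 CPM in the Ck19-derived pair and at most 0.191 CPM elsewhere, and was called in none of the 3 comparisons.

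Peg3, an imprinted zinc finger gene on chromosome 7 (6703892 to 6730431), peaked in a different library. It had 0.22 and 0 CPM in the Ck19-derived libraries, 7.21 and 0.603 CPM in the Sox9-derived libraries, and 0.713 and 0.0335 CPM in the TKO-tagged libraries. The Sox9-derived pair lay above the Ck19-derived pair without overlap, but its libraries differed from one another 12.0-fold. In the fit of the organoid types Peg3 passed the filter on low counts only through the Sox9-derived pair, so its test there is a description. The log2 fold change was 5.10 (SE 1.90, edgeR adjusted p = 0.280). Without Sox9-derived library 2 it was 5.99 (adjusted p = 0.0107).

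Of the growth factor side, the 18 genes for receptors, binding proteins and adaptors of insulin-like growth factors had 0 calls among 11 tested between the organoid types. In the TKO-tagged pair 6 of 15 were called higher and 0 lower against the Ck19-derived pair (median log2 fold change 2.46, against −0.08 over all genes tested), and 8 higher and 0 lower against the Sox9-derived pair (median 2.71, against −0.07). Scaled by library totals these were 6 higher and 1 lower, and 8 higher and 0 lower. With TMM factors, 14.4% of all genes were called higher and 13.1% lower against the Ck19-derived pair, and 14.7% and 12.2% against the Sox9-derived pair. Igfbp1, a secreted binding protein made by hepatocytes, stood at 0 and 0.0916 CPM in the Ck19-derived pair, at 0 in the Sox9-derived pair, and at 3153 and 1150 CPM in the TKO-tagged pair (edgeR adjusted p = 0.00290 and 0.00280). Igfbp2, a fetal liver binding protein, stood at 0.0302 to 0.355 CPM in the organoids and at 43.1 and 411 CPM in the TKO-tagged libraries (edgeR adjusted p = 0.00962 and 0.00948). Igfals, the acid-labile subunit that holds the growth factors in serum, stood at 37.6 and 24.5 CPM in the TKO-tagged pair and had 1 fragment in all organoid libraries. Igfbp1 and Igfals passed the filter on low counts only through the TKO-tagged pair, so that they had to differ. Their calls, counted above, are a description. Igf1, the adult hepatic growth factor, was at 368 and 377 CPM in the TKO-tagged pair, at 20.4 and 4.31 CPM in the Sox9-derived pair and at 0.282 and 0.366 CPM in the Ck19-derived pair. Igfbp4 had 163 and 131 CPM in the Ck19-derived pair, 1.48 and 17.3 CPM in the Sox9-derived pair and 1159 and 832 CPM in the TKO-tagged pair (Sox9-derived over Ck19-derived: log2 fold change −3.96, SE 1.13, edgeR adjusted p = 0.193). Hepatocyte marker RNA moved with these genes as given above, and its part was not tested.

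Other imprinted genes were called in both directions, as genes in general were. Of 34 listed, 22 were tested between the organoid types and 0 were called. Against the Ck19-derived pair, 5 of 24 were higher in the TKO-tagged pair and 5 lower (median log2 fold change −0.60), and against the Sox9-derived pair 6 were higher and 5 lower (median −0.80), beside 14.4% and 13.1%, and 14.7% and 12.2%, of all genes. Scaled by library totals the counts were 5 higher and 7 lower, and 4 higher and 6 lower. Slc38a4, an amino acid transporter of liver and placenta, stood at 0.188 to 1.27 CPM in the organoids and at 306 and 250 CPM in the TKO-tagged pair (edgeR adjusted p = 0.00257 and 0.00281). Mest, a paternally expressed gene of the embryo, stood at 0.483 to 4.29 CPM in the organoids and at 34.1 and 12.5 CPM in the TKO-tagged pair (log2 fold changes 4.55 and 4.10, edgeR adjusted p = 0.0368 and 0.0464), the second of which missed the threshold with library totals (adjusted p = 0.0580). Dcn, which encodes a matrix proteoglycan of mesenchymal cells, was at 0 in all 4 organoid libraries and at 163 and 105 CPM in the TKO-tagged pair, beside the mesenchymal marker levels given above. Since Dcn passed the filter on low counts only through the TKO-tagged pair, its calls are a description. Ascl2 and Ndn went the other way. Ascl2, a placental and stem cell transcription factor, stood at 10.7 to 23.3 CPM in the organoids. Ndn, a growth suppressor gene of the Prader-Willi region, stood at 0.847 to 5.46 CPM there. Both were at 0 in the TKO-tagged pair (edgeR adjusted p = 0.00304 and 0.0191 against the Ck19-derived pair). They passed the filter on low counts only through the organoid libraries, so their calls, counted above, are a description. Cdkn1c, the imprinted cell cycle inhibitor in the neighbouring cluster of chromosome 7, lay between 4.07 and 26.1 CPM in all 6 libraries and was called in none of the comparisons.

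The 3 Igf2bp genes each had a different pattern. Igf2bp1, on chromosome 11 (95957163 to 96005940), stood at 3.14 and 5.34 CPM in the Ck19-derived libraries, 0.137 and 0.875 CPM in the Sox9-derived libraries, and 0.0938 and 0.0838 CPM in the TKO-tagged libraries. The Ck19-derived pair was above both others without overlap. Igf2bp1 passed the filter on low counts only with that pair, so its test results are a description. The log2 fold change was −3.05 (SE 1.02, edgeR adjusted p = 0.242) for the Sox9-derived and −4.76 (SE 1.15, edgeR adjusted p = 0.0318) for the TKO-tagged over the Ck19-derived pair. The call for the TKO-tagged pair was lost without either Ck19-derived or either TKO-tagged library (edgeR adjusted p = 0.0933 to 0.164). Without Sox9-derived library 2 the difference between the organoid types was called, at −4.92 (adjusted p = 0.0138).

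Igf2bp2, on chromosome 16 (22059009 to 22163299), was the most abundant oncofetal gene per exon length in 3 of the 4 organoid libraries, Sox9-derived library 2 being the exception. It stood at 45.9 and 14.3 CPM in the Ck19-derived libraries, 34.6 and 0.392 CPM in the Sox9-derived libraries, and 0.394 and 0.302 CPM in the TKO-tagged libraries. Sox9-derived library 1 lay inside the range of the Ck19-derived pair, while library 2 was 88.3-fold lower and next to the TKO-tagged libraries. The log2 fold change between the organoid types was −0.79 (SE 1.66, edgeR adjusted p = 0.860). Leaving out Sox9-derived library 1 made it −6.23 (adjusted p = 0.00135), and leaving out library 2 made it 0.19 (adjusted p = 0.910). In the TKO-tagged pair Igf2bp2 was lower than in the Ck19-derived pair by a log2 fold change of −5.65 (SE 1.97, edgeR adjusted p = 0.0855), which DESeq2 called (−5.57, adjusted p = 0.00105), as did edgeR on library totals (−6.42, adjusted p = 0.0499).

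Igf2bp3, on chromosome 6 (49085223 to 49214957), ran the opposite way. It stood at 0.0941 and 0.0611 CPM in the Ck19-derived libraries (3 and 2 fragments), 0.683 and 0.332 CPM in the Sox9-derived libraries, and 13.6 and 12.5 CPM in the TKO-tagged libraries. The pairs did not overlap, and the TKO-tagged libraries were within 1.09-fold of one another, the closest agreement of any oncofetal gene in that pair. The TKO-tagged pair was higher than the Ck19-derived pair by a log2 fold change of 8.10 (SE 0.71, edgeR adjusted p = 0.00195) and than the Sox9-derived pair by 5.46 (SE 0.61, edgeR adjusted p = 0.00371). Both calls held under every alternative that was run. Between the organoid types the log2 fold change was 2.65 (SE 0.85, edgeR adjusted p = 0.230), where Igf2bp3 passed the filter on low counts only through the Sox9-derived pair. Malsu1 shares 18.7% of the Igf2bp3 exon bases, so the Igf2bp3 count over that stretch may be too high or too low.

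Levels per exon length set the 3 genes side by side. In the Ck19-derived pair Igf2bp2 stood at 9.45 ± 7.27 TPM (SD, n = 2), Igf2bp1 at 0.961 ± 0.320 TPM and Igf2bp3 at 0.0211 ± 0.00712 TPM. In the TKO-tagged pair the order was Igf2bp3 at 3.16 ± 0.166 TPM, Igf2bp2 at 0.0966 ± 0.0176 TPM and Igf2bp1 at 0.0182 ± 0.00134 TPM. The Sox9-derived pair had Igf2bp2 at 5.76 ± 7.97 TPM, with Igf2bp1 at 0.119 ± 0.121 TPM and Igf2bp3 at 0.144 ± 0.0737 TPM, which did not differ beyond their spread.

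**Figure D4:**
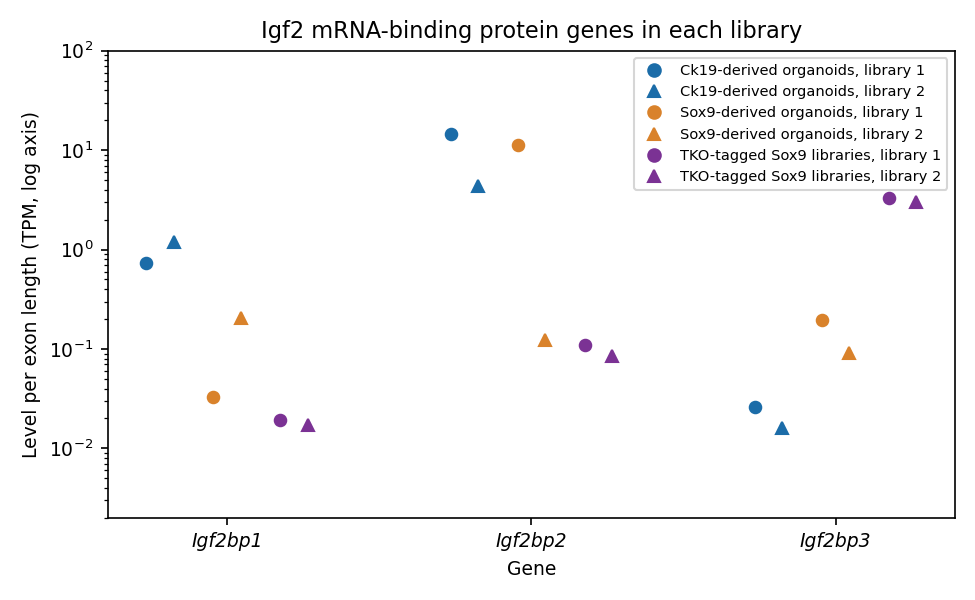
Level per exon length (TPM, log axis) of Igf2bp1, Igf2bp2 and Igf2bp3 in each library. Igf2bp2 is the highest of the 3 in the Ck19-derived libraries and in Sox9-derived library 1, and Igf2bp3 in the TKO-tagged libraries at 3.28 and 3.04 TPM.

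Lin28b, on chromosome 10 (45376620 to 45486395), was at the limit of detection throughout. Its fragments numbered 2 and 4 in the Ck19-derived pair, 3 and 1 in the Sox9-derived pair, and 1 and 0 in the TKO-tagged pair, that is at most 0.122 CPM. The edgeR filter left it out of every comparison. By fragment totals alone, the TKO-tagged over Ck19-derived ratio was 0.0954 (1 against 6 fragments), with a 95% counting interval of 0.00207 to 0.786 that takes no account of spread between libraries. For Sox9-derived over Ck19-derived the interval was 0.128 to 2.60, which holds equal levels. Of 24 other genes of the let-7 pathway, enzymes and known targets, 23 were tested and 0 were called between the organoid types. Against the Ck19-derived pair 1 was higher in the TKO-tagged pair and 2 were lower, and against the Sox9-derived pair 1 was higher and 1 lower (medians −0.36 and −0.25). Scaled by library totals, 0 were higher and 7 lower against either pair. With TMM factors, 14.4% of all genes were called higher and 13.1% lower against the Ck19-derived pair, and 14.7% and 12.2% against the Sox9-derived pair. The let-7 targets Hmga1, a chromatin protein gene, and Ccnd1, a cyclin gene, were lower in the TKO-tagged than in the Ck19-derived pair (log2 fold changes −2.16 and −4.22, edgeR adjusted p = 0.0473 and 0.0270). Tut4, a uridylyl transferase that acts with Lin28 on let-7 precursors, was lower in the TKO-tagged than in the Sox9-derived pair (−1.01, SE 0.28, edgeR adjusted p = 0.0463). Ccnd2, another cyclin target, had the same uneven pair as Igf2bp2, with 223 CPM in Sox9-derived library 1 and 0.181 CPM in library 2, against 383 and 459 CPM in the Ck19-derived pair.

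Afp, on chromosome 5 (90490737 to 90508907), encodes the main serum protein of the fetal liver and was low everywhere. Its level was 0.376 and 0.214 CPM in the Ck19-derived libraries, 1.12 and 0 CPM in the Sox9-derived libraries, and 0.526 and 5.25 CPM in the TKO-tagged libraries. The Sox9-derived pair overlapped both others, the TKO-tagged pair lay above the Ck19-derived pair, and the TKO-tagged libraries differed from one another 9.98-fold. No difference passed the edgeR test, with adjusted p = 0.849 between the organoid types, 0.199 for TKO-tagged over Ck19-derived (log2 fold change 4.0, SE 2.05) and 0.284 for TKO-tagged over Sox9-derived (3.10, SE 1.96). TKO-tagged library 2, the higher in Afp, was also the higher in H19 and in erythroid markers and the lower in Igf2 and Gpc3.

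Neighbours and regulators of Afp were read from a list of 18 genes. Alb, the adult serum albumin gene beside Afp, stood at 9.10 to 20.4 CPM in the Ck19-derived pair, 1.24 to 9.40 CPM in the Sox9-derived pair, and 21740 and 13158 CPM in the TKO-tagged pair (edgeR adjusted p = 0.00503 and 0.00421). Afm, the vitamin E-binding protein gene of the same cluster, stood at 100 and 135 CPM in the TKO-tagged libraries and at most 0.792 CPM in the organoids. It passed the filter on low counts only with the TKO-tagged pair, so its calls are a description. Of this list 17 were tested between the organoid types with 0 called. In the TKO-tagged pair 8 were called higher and 0 lower against the Ck19-derived pair (median log2 fold change 1.53), and 7 higher and 1 lower against the Sox9-derived pair (median 1.36). Scaled by library totals these were 7 higher and 3 lower, and 6 higher and 3 lower. Over all genes, with TMM factors, 14.4% were called higher and 13.1% lower against the Ck19-derived pair, and 14.7% and 12.2% against the Sox9-derived pair. Hepatocyte marker RNA moved with this list (84685 and 68226 CPM against 163 to 566 CPM), Alb is itself one of those 14 markers, and their part was not tested. The hepatocyte transcription factor genes Cebpa and Foxa3 were higher in the TKO-tagged than in the Ck19-derived pair by log2 fold changes of 4.64 (SE 0.48) and 3.56 (SE 0.49), with edgeR adjusted p = 0.00294 and 0.00637. Zhx3, of the zinc finger and homeobox family to which an Afp repressor belongs, was higher in the TKO-tagged than in the Sox9-derived pair (3.18, SE 0.36, edgeR adjusted p = 0.00389).

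Gpc3, on chromosome X (52272426 to 52613950), encodes glypican 3, a cell surface proteoglycan that binds growth factors and Wnt proteins. It stood at 7.53 and 2.14 CPM in the Ck19-derived libraries, 0 and 0.965 CPM in the Sox9-derived libraries, and 207 and 32.6 CPM in the TKO-tagged libraries. The TKO-tagged pair was above the Ck19-derived pair and that above the Sox9-derived pair, with no overlap, while the TKO-tagged libraries differed from one another 6.35-fold. The log2 fold change was 8.80 (SE 1.90, edgeR adjusted p = 0.0235) over the Sox9-derived pair and 5.44 (SE 1.60, edgeR adjusted p = 0.0543) over the Ck19-derived pair. The first call was lost without Ck19-derived library 1 or 2, Sox9-derived library 1 or TKO-tagged library 1 (edgeR adjusted p = 0.0587 to 0.0657). The second difference was called without either Sox9-derived library or TKO-tagged library 2 (edgeR adjusted p = 0.0378 to 0.0402) and by DESeq2 (adjusted p = 0.0373). Between the organoid types the log2 fold change was −3.32 (SE 1.79, edgeR adjusted p = 0.430). It was −10.36 without Sox9-derived library 2, which left the library with 0 Gpc3 fragments. In that comparison Gpc3 passed the filter on low counts only with the Ck19-derived pair where it was high, so these values are a description.

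Other glypicans, syndecans and heparan sulfate enzymes were called in both directions. Of 16 listed, 14 were tested and 0 were called between the organoid types, and 3 were higher and 4 lower in the TKO-tagged pair against either organoid pair (medians 0.18 and 0.53), beside 14.4% higher and 13.1% lower of all genes against the Ck19-derived and 14.7% and 12.2% against the Sox9-derived pair. Scaled by library totals, 3 were higher and 6 lower against either pair, and the medians turned to −0.61 and −0.27. The syndecan gene Sdc2 stood at 13.3 and 26.8 CPM in the Ck19-derived pair, 50.7 and 66.1 CPM in the Sox9-derived pair, and 151 and 175 CPM in the TKO-tagged pair (edgeR adjusted p = 0.00316 and 0.0116). Ndst1, a heparan sulfate sulfotransferase gene, was higher in the TKO-tagged pair by log2 fold changes of 2.45 and 2.34 (edgeR adjusted p = 0.00593 and 0.00654). Sulf2, which removes sulfate groups from these chains, stood at 142 to 173 CPM in the organoids and at 2.61 and 2.93 CPM in the TKO-tagged pair (log2 fold changes −4.96 and −5.09, edgeR adjusted p = 0.000596 and 0.000594). Cd81, a tetraspanin that binds glypican 3, and the glypican gene Gpc6 were lower too (edgeR adjusted p = 0.0303 and 0.0448 against the Ck19-derived pair, 0.0149 and 0.0265 against the Sox9-derived pair).

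Among 16 further fetal liver and embryonic genes, 14 were tested and 0 were called between the organoid types. In the TKO-tagged pair 1 was higher and 7 were lower against the Ck19-derived pair (median log2 fold change −3.34), and 2 were higher and 7 lower against the Sox9-derived pair (median −3.62). Scaled by library totals these were 1 higher and 8 lower, and 2 higher and 9 lower. With TMM factors, 14.4% of all genes were called higher and 13.1% lower against the Ck19-derived pair, and 14.7% and 12.2% against the Sox9-derived pair. Spink1, a trypsin inhibitor gene, was the one called higher against the Ck19-derived pair, with 78.8 and 24.3 CPM in the TKO-tagged libraries and at most 0.641 CPM in the organoids (edgeR adjusted p = 0.00604 and 0.00367). Cd24a, a surface protein gene of progenitor and duct cells, stood at 493 to 1177 CPM in the organoids and at 1.71 and 2.87 CPM in the TKO-tagged pair (edgeR adjusted p = 0.000647 and 0.000613). Pkm, whose embryonic isoform is common in tumours, was lower by log2 fold changes of −4.90 and −4.51, and Lgr5, a Wnt receptor partner of stem cells, by −4.81 and −5.22 (edgeR adjusted p = 0.00196 and 0.00236 for Pkm, 0.0412 and 0.0349 for Lgr5). Biliary marker RNA was lower in the TKO-tagged pair too, as given above, and its part was not tested.

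By the shape of their levels over the 6 libraries, the genes nearest to the 3 most abundant oncofetal genes were genes high in the TKO-tagged pair. The measure was the root mean square distance of centred log2 CPM with a prior of 0.5 fragments, over 6 libraries that share the same difference in cell make-up. Nearest to H19 were Fgb, a fibrinogen chain gene (distance 0.46), and the antitrypsin genes Serpina1e (0.69) and Serpina1d (0.71). These 2 are near-identical copies, whose levels may be lowered because reads with low mapping quality were dropped. Fgb stood at most at 0.0603 CPM in the organoids and at 5969 and 11752 CPM in the TKO-tagged libraries, with the higher value in the same library as H19. Nearest to Igf2 were Ftcd (1.18), Apoa5 (1.20) and Dpys (1.27), and nearest to Gpc3 were Tm6sf2 (1.27), Aspg (1.29) and Slc16a7 (1.34). Apoa5, an apolipoprotein gene, had 576 and 149 CPM in the TKO-tagged libraries, the same order as Igf2 with a smaller gap.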

How the data were processed

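Bulk RNA was sequenced. The deposited values are unnormalized counts of fragments per gene, which came from featureCounts 1.5.0-p3 on Ensembl 87 (GRCm38) with both ends mapped, mapping quality of at least 10 and no use of strand, per the file headers. Per the submitters' processing notes, STAR 2.5.4b, Subread, edgeR and limma were used. Reads with low mapping quality were dropped, which lowers near-identical genes. Columns were tied to samples by name, and 4 count columns that matched no label were not used. Exon lengths in bases, as deposited, gave TPM.

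CPM used library totals. Symbols came from GENCODE (49326 of 49585 identifiers). Genes passing filterByExpr (minimum count 10) were scaled by TMM and tested with edgeR 4.0.16 (quasi-likelihood, R 4.3.3), two-sided, with Benjamini-Hochberg adjustment over all tested genes. Standard errors are the log2 fold change divided by the square root of F. Ratios against 1 to 3 fragments carry exact binomial 95% intervals, and bounds use 3 fragments over a pair, both for counting error only. Replicate pairs differed far beyond sampling noise (chi-square per gene 38.8, 80.4 and 303) and were kept apart. The test was run on data simulated from its own model of the spread, with changes planted only in well-counted genes. That run does not cover oncofetal genes with few fragments or uneven pairs. Alternatives were DESeq2 1.42.0, limma 3.58.1 (voom), relative log expression size factors, no count filter, the replicate block, each library left out, library totals, and fits of 2 pairs.

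The oncofetal genes and 6 further lists (other imprinted genes, insulin-like growth factor system, let-7 pathway, Afp regulators and neighbours, glypicans and heparan sulfate, other fetal genes) and the marker lists were chosen with earlier results of these data known. From each list up to 4 called genes in the majority direction, 2 in the other and the 2 most abundant could be named, with Meg3, Cdkn1c, Mest and Alb in every case, and for the 3 most abundant oncofetal genes the 3 genes most like each. Some genes of these lists are not reported here by name.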

Additional observations from a re-analysis of the deposited data

How the results depend on the processing

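The count of genes called between the organoid types depended on the setting. Against 95 genes by edgeR, DESeq2 called 1512, edgeR without a count filter 506, and leaving out 1 library gave 0 to 1394. The oncofetal genes called were 0, against 2 by DESeq2 and 0 to 3 with 1 library left out. With the TKO-tagged columns in place of the Sox9-derived ones, 5190 genes and 7 oncofetal genes were called. For these pairs the fit of 6 libraries called 27.5% of all genes. H19 and Igf2 pass the filter on low counts there only with the TKO-tagged pair, so the oncofetal count is a description. Neither it nor the other oncofetal counts given here set the list apart. With the replicate number as a block, 0 genes were called between the organoid types (2665 at an unadjusted p under 0.05). Same-numbered libraries did not deviate together across genes (correlations of 0.036, 0.041 and 0.015 between the pairs). These correlations cannot tell whether a number marks a shared animal or batch, which the labels do not say. For the TKO-tagged against the Ck19-derived pair, leaving out 1 library gave 1320 to 4546 genes and 2 to 6 oncofetal genes. Against the Sox9-derived pair it gave 2474 to 4736 genes and 3 to 5 oncofetal genes, limma-voom called 2 oncofetal genes, and scaling by library totals called 7405 genes.

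Some log2 fold changes of oncofetal genes turned sign, and of those values only that of Gpc3 was called. Between the organoid types Afp was 0.91, and became −1.10 by limma-voom, −0.56 with the replicate block, and −6.28 to 1.91 with 1 library left out (lowest without Sox9-derived library 1, which held all of that pair's Afp fragments). Igf2bp2 ran from −6.23 to 0.30 with 1 library left out (0.30 without Ck19-derived library 1, 0.19 without Sox9-derived library 2), and Gpc3 became 5.40 with the TKO-tagged columns in place. Over the Sox9-derived pair and with 1 library left out, the TKO-tagged value ran from −5.83 to 0.60 for Igf2bp2, from −2.50 to 0.17 for Igf2bp1 and from −6.04 to 0.12 for Peg3, with the positive values without Sox9-derived library 1, 2 and 1. Over the Ck19-derived pair Peg3 ran from −0.95, without TKO-tagged library 1, to 7.49. The cause of these shifts was not tested. Of the other log2 fold changes of these genes under the alternatives, 239 kept direction and side of the threshold, 21 lost and 25 gained a call. A library alone in its pair is assumed to vary like the others.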
